A study of Sus scrofa with 12 samples.

Results

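The enzymes described here are the disaccharidases and peptidases of the intestinal brush border: lactase (LCT), sucrase-isomaltase (SI), maltase-glucoamylase (MGAM), trehalase (TREH), aminopeptidase N (ANPEP), dipeptidyl peptidase 4 (DPP4), glutamyl aminopeptidase (ENPEP), neprilysin (MME) and intestinal alkaline phosphatase (ALPI). They were chosen by name, with earlier results of these data known, and 8 of the 9 were found among the 17049 gene names of the deposited table. SI, ANPEP, DPP4, ENPEP and MME carry their own name there, and TREH is listed under the pig Ensembl identifier ENSSSCG00000028204, which the annotation pairs with that symbol. LCT was taken as ENSSSCG00000030013, the 1 Ensembl identifier whose functional annotation in the table includes lactase activity, and it sums 8 loci, of which 1 holds 92.0% of the signal. ALPI was taken as ENSSSCG00000016284, annotated with alkaline phosphatase activity, and the annotation does not give the isozyme. MGAM was not matched and is not analysed here.

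Jejunum RNA was sequenced from 12 piglets in 4 groups of 3, each piglet a biological replicate. Sucking piglets were sampled at 21 days of age, the day of weaning, and weaned piglets at 28 days, 7 days after the sow was removed. W_Con and PW_Con are the sucking and the weaned piglets of sows on a basal corn and soybean meal diet, and W_Res and PW_Res are those of sows whose diet held 300 mg/kg resveratrol, a plant polyphenol, from early gestation through lactation. Age and weaning changed together in the comparisons of weaned with sucking piglets, so that their parts cannot be told apart, and the public records and the paper describe the breed and the housing after weaning differently. Values are FPKM, fragment counts scaled to transcript length and to the mapped fragments of the library, and the deposited table gives no read totals. The samples are whole tissue, in which fewer cells of a type and less RNA per cell cannot be told apart.

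The brush border is the layer of microvilli on the absorptive cells of the villus, and the enzymes anchored in it carry out the last step of digestion. Lactase cleaves the lactose of milk, whereas sucrase-isomaltase and maltase-glucoamylase split sucrose, maltose and the branched ends of starch, and trehalase splits trehalose, a sugar of fungi and insects. Most of the peptidases remove single amino acids or dipeptides from the ends of short peptides, neprilysin cuts inside the chain, and alkaline phosphatase removes phosphate groups. In mammals lactase is known to be high during suckling and to fall later, and it is known to be high in the proximal and middle small intestine and low in the ileum.

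The labelled tissue was compared with markers of the neighbouring segments, since the level of lactase depends on the segment. FABP6, the ileal bile acid binding protein, ranged from 1.70 to 24110.4 FPKM. It was at 8055, 1231 and 9.10 FPKM in W_Con1, W_Con2 and W_Con3, at 128, 12.2 and 6146 FPKM in the W_Res libraries, at 9621, 8791 and 6518 FPKM in the PW_Con libraries, and at 24110.4, 1.70 and 4.81 FPKM in the PW_Res libraries. Thus 7 libraries lay above 1000 FPKM and 5 lay below 200 FPKM, and all 3 PW_Con libraries were among the 7. Other segment markers did not all split the libraries in this way. The proximal gene CYBRD1 was highest in W_Res3 and PW_Res1, at 74.2 FPKM each, both with high FABP6. The distal genes SLC10A2, NTS, NR1H4 and GUCA2B were each higher in all 7 libraries than in any of the 5. SLC10A2 was at 12.9 to 65.9 FPKM in the 7 and at 1.67 to 11.7 FPKM in the 5. The proximal gene GATA4 was at 0.758 to 5.19 FPKM in the 7 and at 9.65 to 24.1 FPKM in the 5. SLC51A, PYY and the other proximal markers overlapped between these sets. Smooth muscle markers also differed: their summed level over 7 genes was 1803 FPKM in W_Res1 and 3918 FPKM in W_Res2, against 151 to 657 FPKM in the other 10 libraries. VIL1, which encodes the microvillus protein villin, lay between 545 and 1062 FPKM in 11 libraries and at 296 FPKM in W_Res2.

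**Figure D1:**
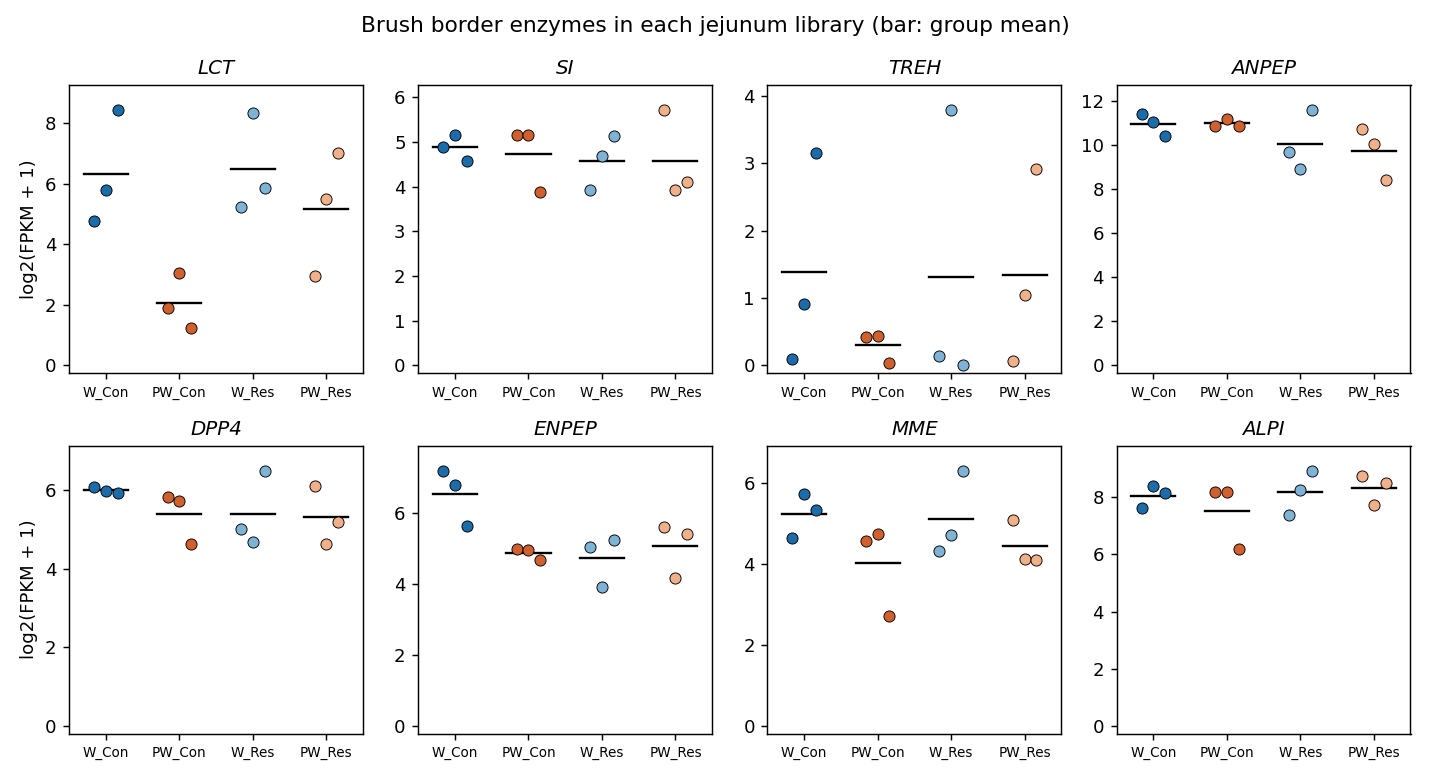
Level of each of the 8 enzymes in each library, as log2(FPKM + 1), in the groups W_Con, PW_Con, W_Res and PW_Res. Points are single libraries in replicate order and bars are means of 3; each panel has its own vertical scale. LCT and ENPEP of PW_Con lie wholly below those of W_Con, and SI of PW_Con overlaps that of W_Con.

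Aminopeptidase N, which removes neutral amino acids from the end of peptides, had the highest mean FPKM of the 8 enzymes in every group. It averaged 2029 ± 677 FPKM in W_Con (SD, n = 3), 1428 ± 1369.56 FPKM in W_Res, 2000.11 ± 241 FPKM in PW_Con and 1016 ± 671 FPKM in PW_Res. Alkaline phosphatase ranked 2 of 8 in each group, with means of 272 ± 68.9, 317 ± 158, 218 ± 126 and 334 ± 111 FPKM in the same order. The ranges of these 2 enzymes did not overlap in W_Con, W_Res and PW_Con, and overlapped in PW_Res. Trehalase had the lowest mean in every group, between 0.237 and 4.29 FPKM. Lactase ranked 3 of 8 in W_Con, W_Res and PW_Res and 7 of 8 in PW_Con. Its range overlapped that of both neighbours in W_Con and W_Res, and in PW_Res that of DPP4 below it alone. DPP4, ENPEP, MME and SI lay between, with group means of 18.2 to 100.1 FPKM, and neighbours among them overlapped in range, except DPP4 above MME in W_Con.

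Lactase was lower after weaning in control litters. It was at 26.4, 54.3 and 342 FPKM in W_Con and at 2.75, 7.37 and 1.37 FPKM in PW_Con. Every weaned piglet lay below every sucking piglet of these litters. The log2 fold change (weaned against sucking, on the log2(FPKM + 1) scale, as all those below) was -4.26 ± 0.91 (SE), with an unadjusted P of 0.00206 and an adjusted p of 0.119 by limma with Benjamini-Hochberg adjustment over the 12611 genes tested. In absolute size it ranked 4 of those genes. The study's standard asks for an unadjusted P below 0.05 together with a change of more than 1 in size on the log2 scale. LCT met it, whereas its adjusted p stayed above 0.05. Without W_Con3, which held the highest LCT and the lowest FABP6 of the control litters, the value was -3.21 with an unadjusted P of 0.0012 and an adjusted p of 0.203.

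In resveratrol litters lactase was at 36.9, 321 and 57.7 FPKM in W_Res and at 6.69, 44.6 and 127 FPKM in PW_Res. The 2 groups overlapped, with PW_Res1 below all sucking piglets and PW_Res3 above 2 of them. The log2 fold change was -1.33 ± 1.12 (SE), with an unadjusted P of 0.27 and an adjusted p of 0.62 in limma. Its 95% confidence interval ran from -3.93 to 1.27, and without single libraries the value ranged from -2.26 (without PW_Res3) to -0.23 (without PW_Res1). After rescaling to equal VIL1 it was -2.15 with an unadjusted P of 0.0195 in limma. That value met the standard, as did 22.9% of all genes under this rescaling. Averaged over both kinds of litter, LCT changed by -2.79 ± 0.81, with an unadjusted P of 0.00528 and an adjusted p of 0.135, and it met the standard. The difference between the litters in the weaning effect was 2.93 ± 1.63 with an unadjusted P of 0.0986 and an adjusted p of 0.44, so that a larger fall in control litters was not established. Without W_Con1, W_Res2 or PW_Res1 the difference was 3.70, 3.85 or 4.03 and met the standard, with an unadjusted P of 0.0485, 0.0355 or 0.0209, and the lowest value without a single library was 1.88. With log2 FABP6 as a covariate the difference was 1.32 with an unadjusted P of 0.227, and after rescaling to equal VIL1 it was 1.96 with an unadjusted P of 0.209.

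The level of lactase was also read beside that of FABP6. Among the 7 libraries with FABP6 above 1000 FPKM, the sucking piglets W_Con1, W_Con2 and W_Res3 had 26.4 to 57.7 FPKM of LCT, and the weaned piglets PW_Con1, PW_Con2, PW_Con3 and PW_Res1 had 1.37 to 7.37 FPKM. These ranges did not overlap. The log2 fold change averaged over the litters was -3.07 in these 7 libraries, with an unadjusted P of 0.00115 and an adjusted p of 0.188 in limma. In this fit W_Res3 and PW_Res1 are the only libraries of their groups, and each was assumed to vary like the control groups. Among the other 5 libraries LCT was at 36.9 to 342 FPKM in the 3 sucking piglets and at 44.6 and 127 FPKM in the 2 weaned piglets, which overlapped. Within resveratrol litters, the 4 libraries with FABP6 below 200 FPKM, 2 against 2, gave -0.53 with an unadjusted P of 0.625. With log2 FABP6 as a covariate, LCT changed by -2.72 in control litters, with an unadjusted P of 0.00369, and by -1.73 in resveratrol litters, with an unadjusted P of 0.0438. The paper reports FABP6, NR1H4 and SLC51A as increased in weaned piglets in the control libraries. Segment and a response of FABP6 to weaning cannot be told apart here, so the covariate may hold part of the weaning effect.

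**Figure D2:**
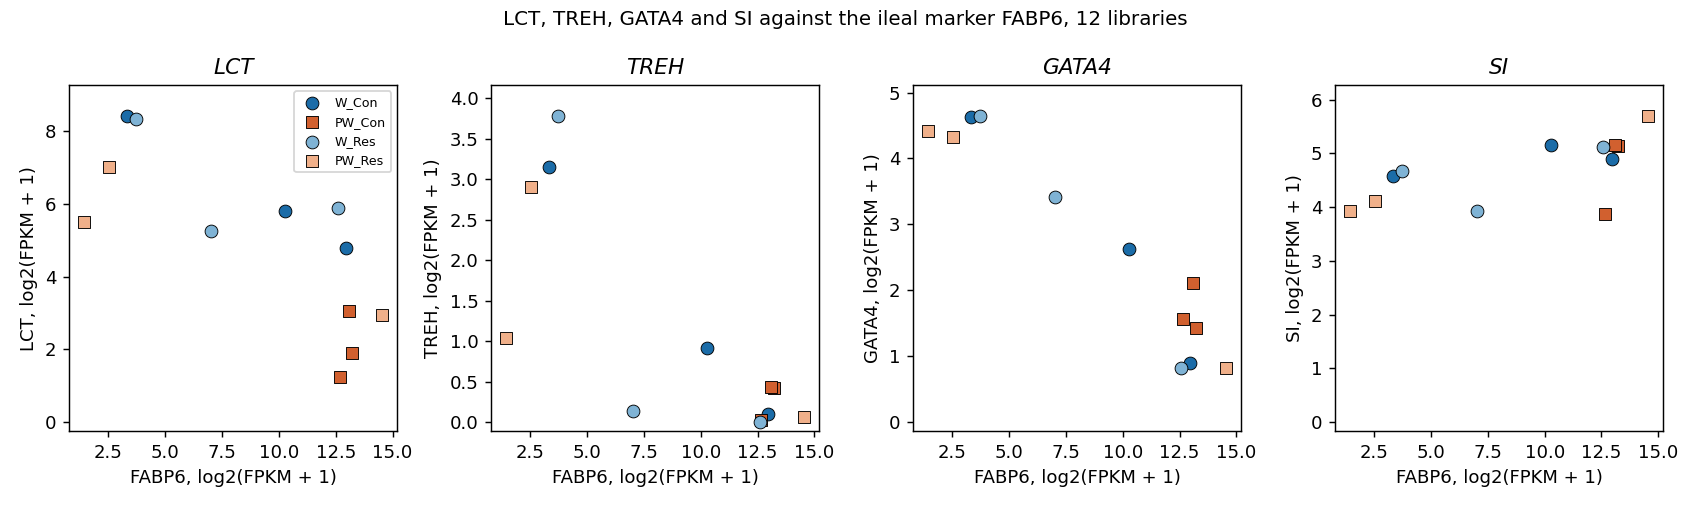
LCT, TREH, the proximal transcription factor GATA4 and SI against FABP6 in the 12 libraries, both axes as log2(FPKM + 1); circles are sucking piglets, squares are weaned piglets, and the darker shades are control litters. On the right of the first panel the 3 sucking piglets (26.4 to 57.7 FPKM of LCT) lie above the 4 weaned piglets (1.37 to 7.37 FPKM).

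Sucrase-isomaltase, the enzyme of a solid diet, was at 28.7, 34.8 and 23.0 FPKM in W_Con and at 34.4, 34.8 and 13.6 FPKM in PW_Con. It was at 14.2, 24.6 and 33.8 FPKM in W_Res and at 51.1, 14.2 and 16.3 FPKM in PW_Res. The groups overlapped in both kinds of litter, and the spread within PW_Res was the widest. The log2 fold change of SI was -0.15 ± 0.37 (SE) in control litters, with an unadjusted P of 0.688 and a 95% confidence interval from -1.02 to 0.71. It was 0.0040 ± 0.51 in resveratrol litters, with an unadjusted P of 0.994 and an interval from -1.19 to 1.20. A fall of SI by 1.02 or a rise of 0.71 on the log2 scale therefore lies within both intervals. A separate locus, ENSSSCG00000030453, annotated with carbohydrate binding, ran from 14.6 to 87.0 FPKM with a Pearson r of 0.961 to SI over the 12 libraries. Whether it is part of the SI gene is not known here, and it was not added to SI in the values given. With it added, the log2 fold change of SI was -0.33 ± 0.43 in control litters and 0.06 ± 0.54 in resveratrol litters, with unadjusted P of 0.458 and 0.91.

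The 4 libraries with the lowest SI, PW_Con3, PW_Res2, W_Res1 and PW_Res3 at 13.6 to 16.3 FPKM, were the 4 with the highest OLFM4, a crypt stem cell marker, at 1193, 880, 1213 and 1145 FPKM in PW_Con3, PW_Res2, W_Res1 and PW_Res3. In the other 8 libraries SI was at 23.0 to 51.1 FPKM and OLFM4 at 146 to 803 FPKM. CCNB1 and CDK1, which drive entry into mitosis, were also highest in these 4 libraries, at 24.9 to 31.3 FPKM and 13.36 to 19.8 FPKM, against at most 23.6 and 13.24 FPKM in the other 8. MKI67, a marker of dividing cells, was at 59.5 to 86.0 FPKM in the 4 and at 25.9 to 68.2 FPKM in the 8, which overlapped. TOP2A, PCNA, LGR5 and SMOC2 of this list did not have that order either. LGR5 was at 0.137 to 0.374 FPKM in the 4 libraries and reached 1.23 FPKM in W_Res2. SMOC2 was at 13.9 to 22.1 FPKM in the 4 and at 7.67 to 24.1 FPKM in the other 8. TOP2A was at 7.94 and 8.66 FPKM in PW_Res2 and PW_Res3, near the low end of its range of 6.31 to 24.3 FPKM, and PCNA was at 12.1 and 11.1 FPKM in W_Res1 and PW_Res3, near the low end of 10.9 to 36.5 FPKM. The part of crypt content in the level of SI was not tested.

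The ratio of LCT to SI compares the milk enzyme with the enzyme of solid feed in the same library. LCT was at 0.919, 1.56 and 14.9 times SI in W_Con and at 0.0799, 0.212 and 0.1002 times SI in PW_Con. In W_Res the ratio was 2.59, 13.02 and 1.70, and in PW_Res it was 0.131, 3.13 and 7.82. All 3 PW_Con piglets and PW_Res1 had more SI than LCT by at least a log2 ratio of 2.10, whereas W_Con1 had them nearly equal and the other 7 piglets had more LCT. With ENSSSCG00000030453 added to SI, 5 piglets had more LCT, of which W_Res1 by a ratio of 1.00, and W_Con1, W_Con2 and W_Res3 had less, at 0.317, 0.646 and 0.699 times SI. On the log2[(LCT + 1)/(SI + 1)] scale the means were 1.45 ± 2.10 in W_Con, -2.65 ± 0.57 in PW_Con, 1.91 ± 1.54 in W_Res and 0.57 ± 2.96 in PW_Res (SD, n = 3).

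The ratio differed by -4.10 on the log2 scale in control litters, with an exact two-sided permutation p of 0.1, the smallest that 3 against 3 piglets allow. In resveratrol litters the difference was -1.33 with an exact permutation p of 0.7. Over both kinds of litter, ages were permuted within each kind, control or resveratrol, over 400 arrangements, with no block for single litters. The difference was -2.72 with an exact two-sided permutation p of 0.045. That p rose to at most 0.125 when single libraries were left out, and it stayed below 0.05 only without W_Con1, W_Res3, PW_Res2 or PW_Res3. With ENSSSCG00000030453 added to SI the difference was -2.66 with an exact permutation p of 0.05, and in control litters it was -3.92 with an exact permutation p of 0.1. The difference between litters was 2.77 with an exact permutation p of 0.325. These 4 tests and the 2 of maternal diet below were not adjusted for their number.

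**Figure D3:**
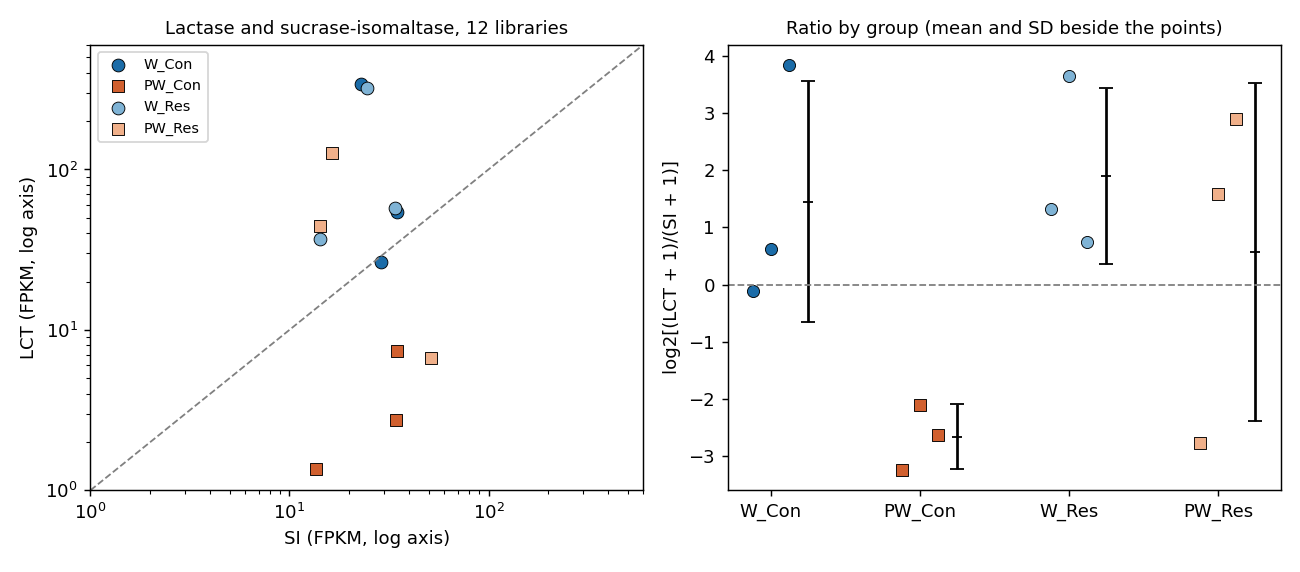
Left, LCT against SI in FPKM on log axes, with equal levels on the dashed line; right, log2[(LCT + 1)/(SI + 1)] of each library, with the group mean and SD beside the points (n = 3). The 3 PW_Con libraries lie at -3.24 to -2.10 and the 3 W_Con libraries at -0.12 to 3.84; PW_Res spans -2.76 to 2.89.

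Trehalase was high in a few libraries only. It was at 0.072, 0.886 and 7.84 FPKM in W_Con and at 0.340, 0.350 and 0.021 FPKM in PW_Con. In W_Res it was at 0.099 and 12.8 FPKM and listed at 0 in W_Res3, and in PW_Res it was at 0.046, 1.05 and 6.50 FPKM. The groups overlapped, and the log2 fold changes of -1.09 ± 0.70 in control litters and 0.03 ± 1.11 in resveratrol litters had unadjusted P of 0.164 and 0.979. Without W_Con1 the value in control litters was -1.73 with an unadjusted P of 0.0304 and met the standard. With log2 FABP6 as a covariate its direction turned, to 0.21 with an unadjusted P of 0.476. In control litters TREH passed the filter, a mean of at least 0.5 FPKM, only through W_Con3. The call without W_Con1 depends on that library, and nothing is concluded from it. The 4 libraries with TREH above 1 FPKM, W_Con3, W_Res2, PW_Res3 and PW_Res2, were the 4 with GATA4 at 19.1 to 24.1 FPKM, against 0.758 to 9.65 FPKM of GATA4 in the other 8. GATA4 is a transcription factor of the proximal small intestine that is known to act on the lactase promoter. Its part in the levels of LCT or TREH was not tested.

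Glutamyl aminopeptidase, which removes acidic amino acids and cleaves angiotensin II, also changed in control litters. It was at 143, 109 and 48.7 FPKM in W_Con and at 30.4, 29.8 and 24.7 FPKM in PW_Con. The groups did not overlap. Its log2 fold change was -1.66 ± 0.37 (SE), with an unadjusted P of 0.00274 and an adjusted p of 0.128 in limma, which met the standard. In resveratrol litters it was at 32.1, 14.1 and 37.0 FPKM before and at 47.0, 17.1 and 41.4 FPKM after weaning. The levels of all 6 of these piglets lay below the lowest of the W_Con group, and the log2 fold change of 0.32 ± 0.48 had an unadjusted P of 0.523. The weaning effect on ENPEP differed between the litters by 1.98 ± 0.67 on the log2 scale, with an unadjusted P of 0.0123 and an adjusted p of 0.268. After rescaling to equal VIL1 the difference was 1.00 with an unadjusted P of 0.145. With log2 FABP6 as a covariate it was 2.59 with an unadjusted P of 0.000214. Without W_Res1 and W_Res2, the libraries with the high smooth muscle markers, the difference was 1.47. That fit leaves W_Res3 alone in its group, assumed to vary like the other groups, so its size is given with no call.

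The other peptidases were within the spread between piglets or close to it. Dipeptidyl peptidase 4, which removes dipeptides that end in proline and inactivates incretins, was at 67.0, 61.9 and 59.8 FPKM in W_Con and at 55.5, 51.6 and 23.7 FPKM in PW_Con. These groups did not overlap, but the log2 fold change of -0.61 ± 0.32 had an unadjusted P of 0.0939. It was -0.23 without PW_Con3 and -0.82 without PW_Con1, with an unadjusted P of 0.194 and 0.045. In resveratrol litters DPP4 was at 31.2, 24.5 and 88.4 FPKM before weaning and at 67.5, 23.8 and 35.4 FPKM after it, a log2 fold change of -0.08 ± 0.54 with an unadjusted P of 0.883. Neprilysin, a metallopeptidase that cleaves small peptides inside the chain, was at 24.3, 52.7 and 39.4 FPKM in W_Con and at 23.0, 26.0 and 5.65 FPKM in PW_Con. The ranges overlapped between W_Con1 and PW_Con2, and the log2 fold change was -1.22 ± 0.55 with an unadjusted P of 0.0607. Without W_Con1 or PW_Con2 it was -1.52 or -1.59 and met the standard, with an unadjusted P of 0.0463 or 0.0316.

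In resveratrol litters MME was at 19.1, 25.3 and 77.9 FPKM before and at 33.2, 16.6 and 16.3 FPKM after weaning. The log2 fold change was -0.67 ± 0.53 with an unadjusted P of 0.245. After rescaling to equal VIL1, where 22.9% of all genes met the standard, it was -1.49 with an unadjusted P of 0.015 and met it. Averaged over the litters, with no rescaling, MME was at -0.95 ± 0.42, with an unadjusted P of 0.0469 and an adjusted p of 0.258. That log2 fold change stopped short of the standard. Without W_Res1 and W_Res2 it was -1.54 with an unadjusted P of 0.00858, a value in which W_Res3, the library with the highest MME of all, stands alone for its group. When 1 library was left out, MME met the standard without W_Con1, W_Res1, W_Res2, PW_Con1, PW_Con2 or PW_Res1 (-1.14 to -1.05) and did not without any of the other 6. In PW_Con3 the levels of 7 of the 8 enzymes, all but ANPEP, were the lowest of the control litters, LCT and ENPEP included.

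Aminopeptidase N was at 2693, 2056 and 1339 FPKM in W_Con and at 1863, 2278 and 1859 FPKM in PW_Con. The PW_Con values lay inside the range of W_Con, and the log2 fold change was 0.03 ± 0.29 with an unadjusted P of 0.92. In W_Res it was at 804, 482 and 2999 FPKM and in PW_Res at 1680.03, 1031 and 338 FPKM, which overlapped, with a log2 fold change of -0.33 ± 0.80 and an unadjusted P of 0.691. ANPEP was at 1680.03 to 2999 FPKM in the 7 libraries with FABP6 above 1000 FPKM. In the 5 libraries with FABP6 below 200 FPKM it was at 338 to 1339 FPKM. With log2 FABP6 as a covariate its log2 fold change was -0.39 in control litters and -0.07 in resveratrol litters. The part of the segment in its level was not tested further. The locus for alkaline phosphatase was at 198, 334 and 286 FPKM in W_Con and at 293, 288 and 72.0 FPKM in PW_Con, a log2 fold change of -0.54 ± 0.54 with an unadjusted P of 0.35. In W_Res it was at 167, 303 and 481 FPKM and in PW_Res at 428, 211 and 362 FPKM, a log2 fold change of 0.14 ± 0.45 with an unadjusted P of 0.761. Both pairs of groups overlapped for this enzyme.

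All 8 enzymes passed the filter on low values and were tested in each of the 6 comparisons. In control litters 2 of the 8, LCT and ENPEP, met the standard, both lower after weaning, where 3.31% of all genes tested met it in either direction. The same 2 of 8 reached an unadjusted P below 0.05 with limma, against 17.7% of all genes. The groups did not overlap for 3 of the 8, LCT, ENPEP and DPP4, against 25.3% of all genes. The median log2 fold change of the 8 enzymes was -0.85, against -0.016 over all genes. In resveratrol litters 0 of the 8 met the standard, against 4.75% of all genes, and 0 of 8 reached an unadjusted P below 0.05 with limma, against 13.3%. There 0 of 8 had groups that did not overlap, against 21.8%, and the median log2 fold change was -0.039, against -0.16 over all genes. Averaged over the litters LCT alone of the 8 met the standard, against 1.42% of all genes. There 2 of 8, LCT and MME, reached an unadjusted P below 0.05 with limma, against 19%. All 8 fold changes were below 0, with a median of -0.44 against -0.10. Leaving out 1 library brought 4 of them above 0, SI to at most 0.14, TREH to 0.088, ANPEP to 0.23 and ALPI to 0.13. The values of the remaining enzymes in the average were -0.07 ± 0.35 for SI, -0.53 ± 0.74 for TREH, -0.15 ± 0.47 for ANPEP, -0.35 ± 0.35 for DPP4, -0.67 ± 0.33 for ENPEP and -0.20 ± 0.38 for ALPI.

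**Figure D4:**
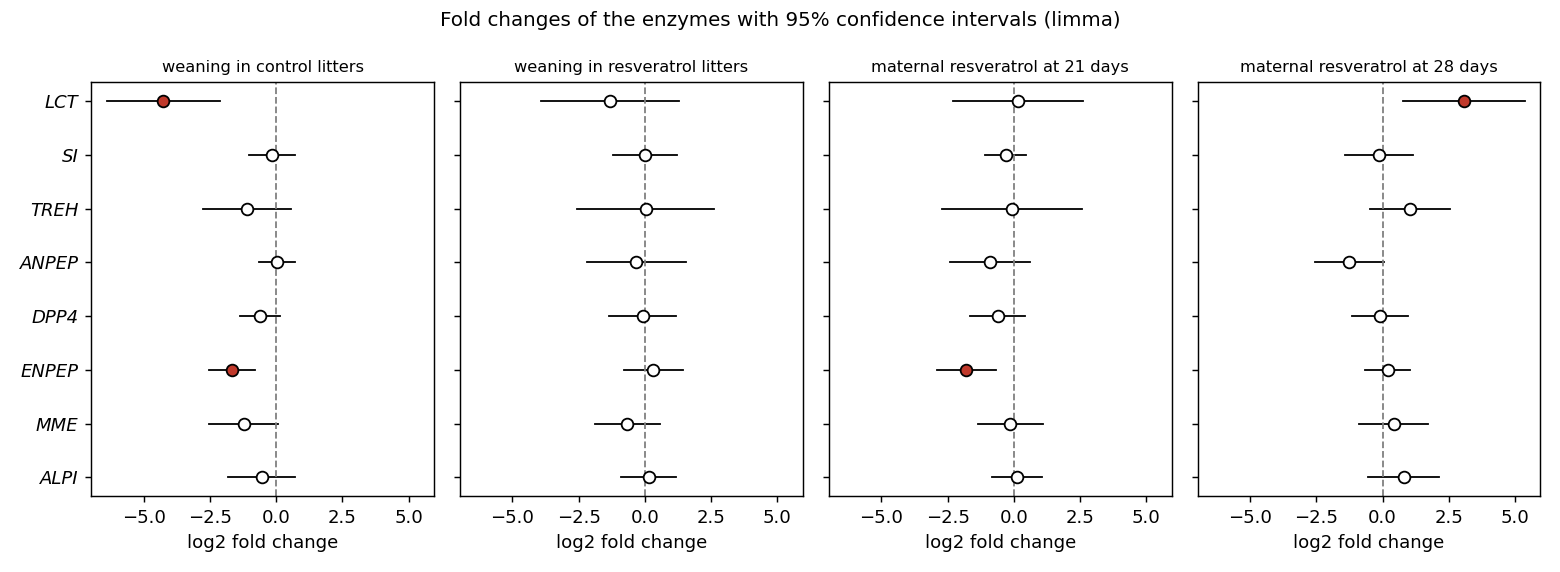
log2 fold change of each enzyme with its 95% confidence interval (limma, 3 against 3 libraries) in 4 comparisons; weaning is weaned against sucking and maternal resveratrol is resveratrol against control litters. Filled points met the standard: LCT and ENPEP in control litters, ENPEP at 21 days and LCT at 28 days.

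For the difference between litters in the weaning effect, ENPEP alone of the 8 met the standard, against 7.76% of all genes tested. The other values were 0.16 ± 0.70 for SI, 1.12 ± 1.48 for TREH, -0.36 ± 0.94 for ANPEP, 0.53 ± 0.69 for DPP4, 0.56 ± 0.85 for MME and 0.68 ± 0.77 for ALPI, each with an SE above its size.

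Resveratrol in the diet of the sow was compared at each age, with the same libraries as above. Before weaning, ENPEP was lower in piglets of resveratrol sows, at 14.1 to 37.0 FPKM against 48.7 to 143 FPKM. The log2 fold change was -1.79 ± 0.48, with an unadjusted P of 0.00651 and an adjusted p of 0.344. It was the 1 enzyme of the 8 to meet the standard, against 4.47% of all genes, and the 1 whose groups did not overlap, against 21% of all genes. W_Res3 alone against the 3 W_Con libraries gave -1.28, a value whose spread comes from W_Con only. With log2 FABP6 as a covariate the value was -1.63 with an unadjusted P of 0.000383. Other markers differed in the same comparison. Of 7 smooth muscle genes 5 were higher by the standard, and of 7 lymphocyte genes tested 3 were lower by it, CD3E (-1.78), CD3D (-1.97) and CD2 (-1.37). Of 13 genes of brush border structure 1 was lower by it, PLS1 (-1.10), and KRT20 was at -0.90 with an unadjusted P of 0.00881. The part of these tissue components in the level of ENPEP was not tested. When all libraries were rescaled to equal VIL1, which is low in W_Res2, ENPEP was at -1.05 with an unadjusted P of 0.0704. The other enzymes had log2 fold changes of 0.15 ± 1.06 for LCT, -0.30 ± 0.33 for SI, -0.08 ± 1.14 for TREH, -0.89 ± 0.64 for ANPEP, -0.61 ± 0.44 for DPP4, -0.13 ± 0.52 for MME and 0.12 ± 0.40 for ALPI. Without W_Res3, the W_Res library with FABP6 above 1000 FPKM, those of ANPEP and DPP4 were -1.65 and -1.16 and met the standard. Their unadjusted P in limma was 0.00443 and 0.000972, and 7.2% of all genes met the standard in that fit. With log2 FABP6 as a covariate the values of ANPEP and DPP4 were -0.68 and -0.50, with an unadjusted P of 0.116 and 0.209. With W_Res3 alone in its group they were 0.62 and 0.49. The log2 ratio of LCT to SI differed by 0.46 with an exact permutation p of 0.7.

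**Figure D5:**
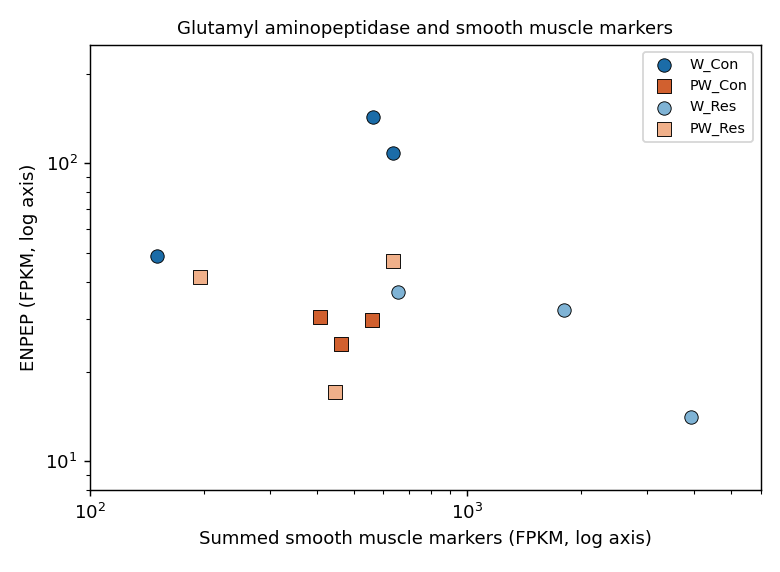
ENPEP against the summed level of 7 smooth muscle markers in each library, both in FPKM on log axes; circles are sucking piglets and squares are weaned piglets. W_Res1 and W_Res2, at 1803 and 3918 FPKM of smooth muscle markers, stand apart on the right, and W_Con1 and W_Con2 have the highest ENPEP, 143 and 109 FPKM.

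After weaning, LCT was higher in piglets of resveratrol sows by 3.08 ± 0.98 on the log2 scale, with an unadjusted P of 0.0154 and an adjusted p of 0.404. It was the 1 enzyme of the 8 to meet the standard, against 1.81% of all genes. The groups overlapped, since PW_Res1 at 6.69 FPKM lay below PW_Con2 at 7.37 FPKM. The 2 PW_Res libraries with high LCT, at 44.6 and 127 FPKM, had 1.70 and 4.81 FPKM of FABP6, whereas PW_Res1 and all 3 PW_Con libraries had 6518 FPKM or more. With log2 FABP6 as a covariate the value was 1.37 with an unadjusted P of 0.141. In the same comparison all 7 proximal genes had higher values, with a median of 1.14, and 1 met the standard, CYBRD1 (1.94). All 7 distal genes had lower values, with a median of -1.63, and 1 met the standard, NR1H4 (-1.63). All 9 lymphocyte genes had lower values, with a median of -0.93, and 0 met the standard or reached an unadjusted P below 0.05 with limma. Of 7 crypt and cell division genes tested 1 met the standard, TOP2A (-1.11), at 16.4 to 24.3 FPKM in PW_Con and at 7.94 to 8.72 FPKM in PW_Res. The part of these components in the level of LCT was not tested beyond the covariate. Without PW_Con3 the value for LCT was 2.67 with an unadjusted P of 0.0533. ANPEP was lower in all 3 PW_Res piglets than in any PW_Con piglet, the 1 enzyme of the 8 without overlap, against 17.3% of all genes, but its log2 fold change of -1.25 ± 0.56 had an unadjusted P of 0.0591. The other values were -0.15 ± 0.55 for SI, 1.04 ± 0.65 for TREH, -0.08 ± 0.45 for DPP4, 0.19 ± 0.37 for ENPEP, 0.42 ± 0.56 for MME and 0.80 ± 0.57 for ALPI. Without PW_Res1 3.46% of all genes met the standard. In that fit ANPEP and TREH met it, at -1.75 and 1.68, with an unadjusted P of 0.00855 and 0.0181. With log2 FABP6 as a covariate they were -0.49 and 0.088, with an unadjusted P of 0.418 and 0.899. At this age TREH passed the filter on low values only through PW_Res3, at 6.50 FPKM, so nothing is concluded from its call. The log2 ratio of LCT to SI was higher by 3.22 with an exact permutation p of 0.3.

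Across the 12 libraries the enzymes did not follow one pattern. As a description, with the libraries shared by all pairs, the Pearson r of log2(FPKM + 1) was highest for MME with ALPI (0.822), SI with DPP4 (0.798), LCT with TREH (0.787) and DPP4 with MME (0.782). LCT and SI had an r of -0.18, TREH and ANPEP of -0.73 and LCT and ANPEP of -0.53. Of 7717 named genes with a mean of at least 1 FPKM, those most like LCT were PCSK4 (0.925), SLC25A4 (0.905), LPAR1 (0.896), GCLC (0.888) and CAT (0.886). Those most like SI were WIPF3 (0.930), NCKAP5 (0.892), SCPEP1 (0.887), CA12 (0.852) and AMN (0.851).

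Of 16 other hydrolases and peptidases of the brush border, 12 were tested, and 2 met the standard in control litters, both lower after weaning, against 3.31% of all genes. ENPP3, an ectonucleotide pyrophosphatase, was at 28.6 to 51.6 FPKM in W_Con and at 3.06 to 15.3 FPKM in PW_Con, a log2 fold change of -2.003 with an unadjusted P of 0.00532. TMPRSS15, the enteropeptidase that activates trypsinogen, changed by -1.14 with an unadjusted P of 0.00768 from a mean of 3.18 FPKM over all libraries. In resveratrol litters TMPRSS15 was at 1.37 with an unadjusted P of 0.0861, and the difference between litters, 2.51 with an unadjusted P of 0.0123, met the standard. Averaged over the litters ENPP3 (-1.38, unadjusted P 0.00378) and ACE, angiotensin-converting enzyme (-1.42, unadjusted P 0.0461), met it, against 1.42% of all genes, and the median of the 12 genes in control litters was -0.36 against -0.016 over all genes.

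The uptake genes take up the products of these enzymes. Of 10 tested, 0 met the standard in control litters and 1 reached an unadjusted P below 0.05 with limma, against 17.7% of all genes. In resveratrol litters 2 rose by the standard after weaning, the peptide transporter SLC15A1 by 1.08 (unadjusted P 0.0332) and the neutral amino acid transporter SLC6A19 by 1.11 (unadjusted P 0.0201). In control litters the values for these 2 genes were -0.94 and 0.30. Of 12 transcription factors known to act on the LCT or SI promoter that were tested, 0 met the standard in control litters, in resveratrol litters or in the average, and 2, 0 and 1 of them had an unadjusted P below 0.05, against 17.7%, 13.3% and 19% of all genes. In control litters HNF4A was at 0.27 (unadjusted P 0.228) and GATA6 at 0.65 (unadjusted P 0.0435). The 13 genes of brush border structure also gave 0 calls in these 3 comparisons, with 4, 1 and 2 at an unadjusted P below 0.05, against the same shares; the standard was met by 3.31%, 4.75% and 1.42% of all genes. Of these 13 genes 6 had higher values after weaning in control litters, all 13 in resveratrol litters (median 0.36, against -0.16 over all genes) and 12 in the average (median 0.28, against -0.10). VIL1 was at -0.16 in control litters and 0.85 in resveratrol litters, with unadjusted P of 0.568 and 0.0685. KRT20, a keratin of villus cells, was at -0.20 and 0.96, with unadjusted P of 0.354 and 0.0162.

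The marker lists moved beside these results, and 3.31% of all genes met the standard in control litters and 4.75% in resveratrol litters. In control litters all 7 proximal genes had lower values after weaning, and 3 met the standard, SLC40A1 (-1.92), GIP (-1.38) and FABP1 (-2.11). All 7 distal genes had higher values, and 1 met the standard, SLC51A (1.26). The summed proximal markers were 3446 to 12644 FPKM in W_Con and 935 to 2844 FPKM in PW_Con, and the summed distal markers 93.7 to 8475 FPKM and 6900.27 to 10159 FPKM. In resveratrol litters 0 of the 7 genes of either list met the standard or reached an unadjusted P below 0.05 with limma, whereas all 7 smooth muscle genes fell by the standard, with ACTG2 at -2.76. Of 9 lymphocyte genes 1 met the standard in control litters, CD79B at 2.05, which was at 37.5 FPKM in PW_Con2 and at 2.25 and 3.29 FPKM in the other PW_Con libraries. The T cell genes CD3E (-0.74, unadjusted P 0.0312) and CD3D (-0.63, unadjusted P 0.0409) had values in the other direction. Of 4 goblet cell genes 1 met the standard, TFF3 at 1.26, with SPINK4 at -0.41 and CLCA1 at 0.0051. Of the crypt and cell division genes 0 met the standard in either kind of litter, with 2 of 7 and 0 of 8 at an unadjusted P below 0.05, against 17.7% and 13.3% of all genes. The part of segment, muscle or crypt content in the enzymes was not tested beyond the values given.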

How the data were processed

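Poly(A) RNA of 12 jejunum samples was sequenced as paired-end libraries. The paper names TopHat, StringTie and Ballgown, and the submitters' processing notes name Bowtie 0.12.2, HISAT2 2.0, StringTie 1.3.0 and the builds Sscrofa10.2 and mm8, without roles. The authors deposited 1 table of FPKM for 41264 loci, and name no further scaling of the libraries. It holds no counts, and read totals that the paper gives for the control libraries were not used here, so no counting interval was given. Loci sharing a gene name were summed, and the 17650 loci without one were left out. Values were analysed as log2(FPKM + 1) with limma 3.58.1 in R 4.3.3 (lmFit, eBayes with a trend) for genes averaging 0.5 FPKM or more in the libraries of a fit, and p-values were adjusted over all genes tested. Pairwise comparisons used their 6 libraries, and the average and the difference used all 12. The standard was taken from the paper. The method was tested on simulated data. Ratios of LCT to SI were compared by exact permutation.

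The members and lists were chosen with earlier results of these data known. All members were named, and the 5 genes most like LCT and SI. By rule, genes of each list that met the standard in a weaning comparison were named, at most 4 by size in the average. Otherwise the 2 highest in mean FPKM were named. Further list genes were named outside this rule, for their values. Among them are CCNB1, CDK1, TOP2A, PCNA, LGR5, SMOC2, CD3E, CD3D, CD2, PLS1, CYBRD1, SLC10A2, NR1H4, NTS, GUCA2B, PYY, SPINK4, CLCA1 and GATA4. Alternatives were a pseudocount of 0.1, no filter or a minimum of 5 FPKM, median-of-ratios and quantile scaling, a replicate block, eBayes with no trend, the highest locus in place of sums, unnamed loci kept, all 12 libraries and single libraries left out. FABP6 as a covariate, rescaling to VIL1, sets chosen by FABP6 or smooth muscle markers, and a further locus added to SI were added after seeing the data. LCT, TREH and ALPI were matched through identifiers or functional annotation. No sequences are shown.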

Additional observations from a re-analysis of the deposited data

Results flagged for a closer look

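The effect of weaning on ENPEP differed between control and resveratrol litters by 1.98 on the log2 scale (95% confidence interval 0.52 to 3.44), by the test of the difference itself in limma, with an unadjusted P of 0.0123 and an adjusted p of 0.268. All 3 weaned piglets of control litters lay below their sucking counterparts, whereas the 2 groups of resveratrol litters overlapped. Leaving out each library in turn gave 1.57 to 2.43. Rescaling to VIL1 gave 1.00 with an unadjusted P of 0.145. With log2 FABP6 as a covariate it was 2.59, with an unadjusted P of 0.000214 and an adjusted p of 0.28. Without W_Res1 and W_Res2, which leaves W_Res3 alone in its group, it was 1.47, a size given with no call. Groups of 3 are too small for a search for single outlying samples.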

How the results depend on the processing

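In control litters LCT and ENPEP met the standard under every alternative run. When single libraries were left out, 2 to 4 of the 8 enzymes met it, against 3.01% to 4.38% of all genes. After rescaling to VIL1 4 met it (against 4.67% of all genes), which added TREH and MME. TREH passed the filter in control litters only through W_Con3, so nothing is concluded from its calls in these counts. The rescaling to VIL1 also gave the lowest adjusted p of LCT, 0.00218, against 0.108 to 0.276 otherwise. In resveratrol litters 0 met the standard when single libraries were left out (3.06% to 8.08% of all genes). There 1, LCT, met it with FABP6 as a covariate (5.36% of all genes). There 2, LCT and MME, met it after rescaling to VIL1, where 22.9% of all genes met it. Averaged over the litters the count was 1 to 2 without single libraries (1.2% to 1.98% of all genes). It was 2 with FABP6 as a covariate and after rescaling to VIL1 (1.67% and 3.3% of all genes), with MME as the second. Without W_Res1 and W_Res2, W_Res3 is the only library of its group, so calls of such fits are not counted here. For the difference between litters the count was 1 to 2 without single libraries (4.9% to 10.6% of all genes) and 0 after rescaling to VIL1 (23.3%). At 21 days it was 1 to 3 without single libraries (2.99% to 7.2% of all genes) and 0 after rescaling to VIL1 (17.8%). At 28 days it was 0 to 3 without single libraries (1.79% to 3.46% of all genes) and 0 with FABP6 as a covariate (3.3%). It was 2 after rescaling to VIL1 (3.09% of all genes) and 2 with the replicate block (2.08%), which added ANPEP. The count of 3 includes TREH, which passed the filter at this age only through PW_Res3.

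The log2 ratio of LCT to SI averaged over litters lay between -3.30 and -1.89 without single libraries, and was -2.66, with an exact permutation p of 0.05, with ENSSSCG00000030453 added to SI. The ratio in resveratrol litters ranged from -2.50 to 0.33, and at 21 days from -0.42 to 1.65. Directions that reversed were TREH in control litters with FABP6 as a covariate (0.21), and at 21 days DPP4 after rescaling to VIL1 (0.14) and without W_Res1 and W_Res2 (0.49) and ANPEP without W_Res1 and W_Res2 (0.62). The causes were not tested. Of 975 values of single enzymes under an alternative, 851 kept direction and call, and 87 changed sign where the original lay within 1 SE of 0. Median-of-ratios rescaling moved the median of all genes in resveratrol litters from -0.16 to 0.014, and rescaling to VIL1 moved it to -0.84.

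Same-numbered piglets did not deviate together (r -0.26 to 0.11), which cannot decide whether they share a litter. The litter of each library is not known here, and the main fits treated all piglets as independent. With the replicate block 3 of the 8 enzymes met the standard in control litters, LCT, ENPEP and MME, against 3.52% of all genes. The log2 ratio of LCT to SI in the average was then -2.72. With 3 piglets a group, a change within an interval that includes 0 could not be told from no change.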

Other observations

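MGAM2, a gene other than MGAM that encodes a related glucosidase, was at 5.68, 2.59 and 22.7 FPKM in W_Con, at 1.57, 1.34 and 1.23 FPKM in W_Res, at 1.75, 1.00 and 0.476 FPKM in PW_Con and at 3.19, 1.13 and 2.03 FPKM in PW_Res. The W_Con values lay above those of PW_Con and of W_Res, and 1 PW_Res value lay above the lowest of them. LCTL, a lactase-like gene, lay between 1.06 and 3.49 FPKM in all 12 libraries. Both were singled out after their values were seen, and neither is counted among the 8 enzymes.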
